A study of Mus musculus with 34 samples.

Results

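Spinal cord of mice that lack trkB.T1 (knockout, KO) was compared 3 days after spinal cord injury with cord of KO mice after sham surgery, in which the cord was left intact. The comparison rests on 9 of the 34 arrays of the series, namely the 5 arrays whose labels give knockout, spinal cord injury and day 3, and the 4 whose labels give knockout and sham. Ntrk2 encodes trkB, which binds brain-derived neurotrophic factor (BDNF), and trkB.T1 is a shorter product of the same gene without the kinase domain. The labels give all 9 samples as knockout, and the titles of the sham samples give day 0. Injury and the labelled day therefore differ together between the groups and cannot be told apart. The labels give neither strain, age, sex nor level of injury, and do not state whether arrays stand for separate animals. The p-values therefore measure a spread between samples, estimated over all 34 arrays of the series and not from these 9 alone. Wild-type (WT) cord at day 3 and after sham (4 arrays each) and KO cord at days 1 and 7 (4 arrays each) are used beside it.

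The arrays are Affymetrix expression arrays, each hybridised with cRNA of 1 sample, and precision is limited by how many arrays each group has. The values are log2 signals, with 1 probe set per gene. Genes had to exceed log2 4 on 4 or more of the arrays, which left 11993 to test. A gene is said to rise or fall only where the Benjamini-Hochberg adjusted p of limma over all these genes was under 0.05. Errors after ± are standard errors for log2 differences and SDs for levels. Readings under log2 4 are taken as not well above background. If the lower group holds such a reading, readings under 4 in both groups are set to 4 and the fold is written as at least that value. It is a strict lower bound only where the higher group holds no reading under log2 4. Fitted log2 differences of such genes are of the deposited values and are no bound. Genes were named by a rule on the size of the change and its p; list members that went against their list or did not pass, and single markers, were named after their values were seen.

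In the first days after a contusion or cut, blood monocytes enter the cord and become macrophages, resident microglia and astrocytes react, and glia, macrophages, endothelial cells and fibroblasts divide. Neurons and oligodendrocytes near the lesion are lost or lower their specialised genes. Cell division follows a fixed order of gene classes, from cyclin D and E2F factors through replication licensing and DNA synthesis to the mitotic kinases and spindle proteins. In whole tissue, fewer cells of a type and less RNA per cell cannot be told apart.

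Ntrk2 is read by 8 probe sets, of which 6 were above the filter. The probe set with the highest level, which stands for the gene, read 11.36, 11.37, 11.22 and 11.27 in sham and 10.23, 10.52, 9.18, 9.42 and 10.44 at day 3, and fell 2.55-fold (by 1.35 ± 0.20, adjusted p = 9.29e-07). All injured samples were lower, replicates 3 and 4 the most. Another 3 fell by 1.06 ± 0.18, 1.26 ± 0.21 and 0.48 ± 0.11. The remaining 2 are those that read low in KO cord, at 3.90 ± 0.72 and 2.83 ± 0.00 at day 3 (n = 5) against 10.65 and 9.09 in WT day 3 cord. In KO sham they read 4.62, 9.46, 3.31 and 4.91, and 2.83, 8.59, 2.83 and 2.83. The library labelled KO sham replicate 2 thus does not match its genotype label at these probe sets; it is called KO sham replicate 2 in the text, and the knockout part of its label is in doubt wherever a direction is drawn with it. At both probe sets, the fitted falls at day 3 (by 1.68 ± 0.63 and 1.44 ± 0.63) rest on that library. Which part of the transcript each probe set reads is not given in the sources used here. Without this library 7951 genes passed, 7896 of them among the 8359, and of 184 named genes that passed 180 still did.

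Among the injured samples, KO day 3 replicates 3 and 4 lay farthest from sham cord over all genes and replicates 1 and 3 read high for skeletal muscle genes.

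Of the genes tested, 8359 (69.7%) passed in KO day 3 against KO sham cord, 3709 (30.9%) higher and 4650 (38.8%) lower after injury. Differences of at least 2-fold were reached by 1491 of the higher genes (12.4% of those tested) and 1180 of the lower genes (9.84%). The arrays of both groups did not overlap for 3161 of the higher genes (26.4%) and 3950 of the lower genes (32.9%). The median difference over all genes was -0.06. Every share of a gene list given in the text is to be read against these percentages. The defining markers of neurons (Snap25, Rbfox3), astrocytes (Gfap, Aqp4), oligodendrocytes (Mbp, Mog) and microglia (Csf1r, Aif1) were all above background on all 9 arrays, while the motor neuron markers Chat and Slc18a3 were below log2 4 on each.

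The 12 largest rises that left no overlap between the groups were mostly genes of macrophages. Arg1, the arginase of alternatively activated macrophages, read 2.38, 2.38, 2.17 and 2.38 in KO sham replicates 1 to 4 and 11.94, 11.08, 12.49, 13.21 and 11.45 in KO day 3 replicates 1 to 5. It was at background in every sham sample and among the brighter genes in every injured one, a rise of 9.70 ± 0.42 (at least 262-fold, adjusted p = 1.29e-17). Gpnmb, a lysosomal glycoprotein of phagocytes, rose from 4.17, 2.77, 3.11 and 3.11 to 11.20, 11.59, 11.96, 12.58 and 11.74 (8.52 ± 0.48, at least 218-fold). Hmox1, the heme oxygenase that breaks down heme, rose at least 194-fold (8.40 ± 0.33). Lgals3, the galectin of activated phagocytes, was above background already in sham cord, so its fold is not a bound: it rose 218-fold, from 5.86, 4.58, 6.13 and 5.23 to 12.95, 12.98, 13.48, 13.71 and 12.98. The others were Timp1, an inhibitor of metalloproteinases (at least 89.8-fold), Clec4d, a lectin receptor of myeloid cells (at least 87.5-fold), C3ar1, the receptor of complement C3a (at least 86.3-fold), the scavenger receptor gene Msr1 (at least 68.4-fold), Ms4a6d (at least 132-fold), Ch25h, which makes 25-hydroxycholesterol (at least 51.8-fold), the lysosomal protein gene Cd68 (at least 121-fold) and Sprr1a, which injured neurons are known to induce (at least 43.3-fold).

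The 12 largest falls were smaller. Ccser1 fell by 2.92 ± 0.43, from 7.66, 7.54, 7.68 and 7.84 to 5.56, 6.12, 2.87, 3.25 and 5.97. Replicates 3 and 4 read below background and the other injured samples between sham and background, so the fold of at least 5.86 depends on the sample. Hapln1, the link protein of perineuronal nets, fell 5.84-fold (by 2.55 ± 0.25), with 8.18, 8.27, 8.17 and 8.06 in sham and 6.02, 5.96, 5.27, 4.54 and 6.31 at day 3. Gjd2, which encodes the neuronal gap junction protein connexin 36, fell 5.65-fold, and its lowest readings, 4.03 and 4.30, were again those of replicates 3 and 4. Cpne4, Sptssb, Nxph2, Dao (D-amino acid oxidase), Vwc2l, Agtr2 (the type 2 angiotensin receptor), Trpc5 (a cation channel), Hes5 (a Notch target) and Zmat4 fell by 2.49 to 2.85 on the log2 scale, each to below log2 4 on at least 1 injured array. Without replicates 3 and 4, all 12 still passed, and the differences of Ccser1, Agtr2 and Zmat4 were -1.80, -1.65 and -1.33.

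**Figure D1:**
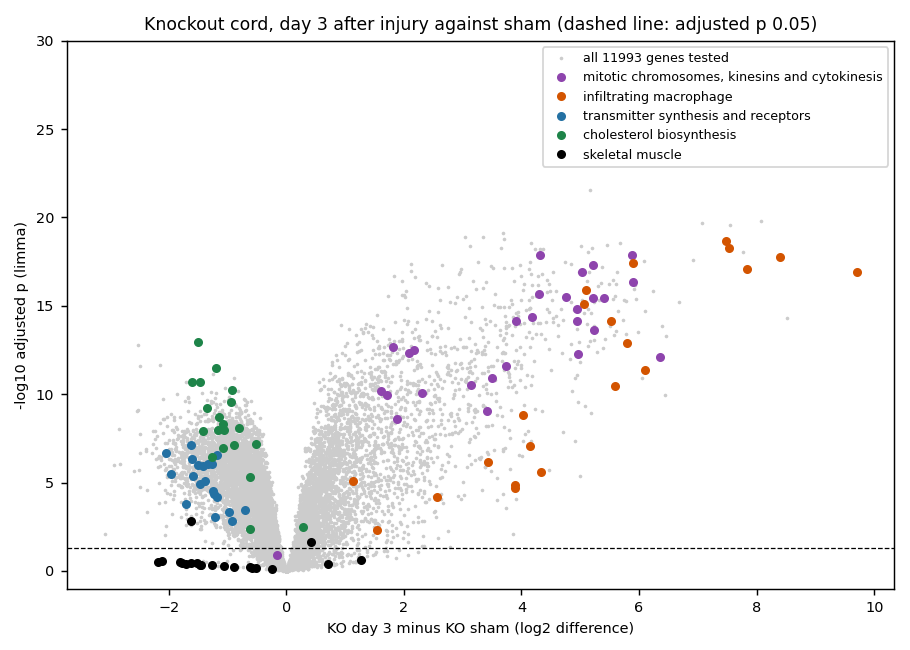
Log2 difference between KO day 3 and KO sham cord (x) against -log10 of the limma adjusted p (y) for the 11993 genes tested, with 5 gene lists coloured. Macrophage and mitotic genes lie far to the right, cholesterol and transmitter genes to the left, and most skeletal muscle genes under the dashed line at an adjusted p of 0.05.

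Genes of the cell division machinery rose in each step of the cycle. In G1, 15 of 18 tested genes for cyclins, cyclin-dependent kinases (CDKs) and E2F factors were higher, 2 were lower and the median was 1.41. Ccnd1, the cyclin that starts the G1 phase, read 9.45, 9.46, 9.54 and 9.46 in sham and 11.27, 11.21, 11.66, 11.82 and 11.29 at day 3, a rise of 3.92-fold (1.97 ± 0.13, adjusted p = 9.73e-14) from a level that was nearly the same in all 4 sham samples. Its partner Cdk4 rose 3.18-fold, the growth regulator Myc at least 6.62-fold and Rbl1, which encodes the pocket protein p107, 7.88-fold. The members that fell, Ccne1 (by 0.24 ± 0.07) and Rbl2 (by 0.31 ± 0.08), were exceptions, and Rbl2 encodes the pocket protein known from resting cells.

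Of 16 tested genes for replication licensing and origins, 13 were higher and none lower, with a median of 2.59. Members of the replicative helicase led them: Mcm3 rose at least 17.8-fold, Mcm5 13.4-fold, Mcm6 10.5-fold and Mcm7 4.58-fold. Cdc7, Gins3 and Gins4 did not pass, at -0.10, 0.19 and 0.16. All 19 tested genes for nucleotide supply and DNA synthesis were higher, with a median of 1.47. Rrm2, the regulated subunit of ribonucleotide reductase, read 5.71, 5.20, 6.43 and 5.99 in sham and 11.08, 10.66, 11.64, 11.63 and 10.78 at day 3, a 40.1-fold rise (5.32 ± 0.27), whereas its partner Rrm1 rose 4.03-fold. Pcna, the sliding clamp of DNA polymerase, rose 2.77-fold from an already high level (10.81 to 10.88 in sham, 12.08 to 12.65 at day 3). Uhrf1, which helps to copy DNA methylation, rose at least 14.6-fold.

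Genes of mitosis rose as well. The median log2 difference was 3.65 over 22 tested genes for mitotic entry and the spindle checkpoint (21 higher, 1 lower) and 4.24 over 28 for mitotic chromosomes, kinesins and cytokinesis (27 higher). Cdk1, the kinase that drives mitotic entry, read 3.09, 3.19, 3.71 and 3.66 in sham and 9.03, 8.75, 9.21, 9.68 and 8.79 at day 3. It was below background in every sham sample and rose at least 34.1-fold (5.68 ± 0.20, adjusted p = 2.88e-19). Its cyclin partners Ccna2 and Ccnb2 rose at least 31.9-fold and 22.5-fold, and Cdc20, an activator of the anaphase-promoting complex, 18.0-fold. Among the chromosome and cytokinesis genes, Cep55, needed to cut the midbody, rose at least 31.5-fold, Cenpa, the centromeric histone, at least 28.5-fold, the kinesin gene Kif20a at least 10.7-fold and the kinetochore motor gene Cenpe at least 9.23-fold. The member that fell was Pttg1, which encodes securin (by 0.29 ± 0.06), and Anln, which oligodendrocytes also express, did not pass at -0.16.

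The CDK inhibitors split. Cdkn2c rose 12.4-fold, from 4.46 to 4.48 in sham to between 7.74 and 8.59 at day 3, Cdkn3, a phosphatase gene that cycling cells express, at least 4.17-fold, Cdkn1a, the p53 target p21, 3.51-fold and Cdkn2b at least 1.69-fold. Cdkn1b and Cdkn1c, the inhibitors p27 and p57, fell by 0.37 ± 0.08 and 1.01 ± 0.24, and Cdkn2d did not pass, at -0.09 ± 0.07. No cell division list had a count of higher genes that changed by more than 1 when KO sham replicate 2, KO day 3 replicate 3, or replicates 1 and 3 or 3 and 4 together were left out.

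Promoters of the mitotic genes are shown because many of them rose together and share short elements known to be read by the cell cycle machinery: the CCAAT box, bound by NF-Y, and the cell cycle homology region (CHR), searched here as TTTGAA or TTCGAA, all on both strands. The motifs can share a base at an edge. The sequences are those of RefSeq (GRCm38.p6), the 250 bases before the annotated start, 5′ to 3′ on the gene's strand, with matches in capitals (ATTGG is CCAAT on the other strand). The Cdk1 window lies at chr10:69352913-69353162 on the minus strand and the Ccnb2 window at chr9:70421555-70421804 on the minus strand.
Cdk1: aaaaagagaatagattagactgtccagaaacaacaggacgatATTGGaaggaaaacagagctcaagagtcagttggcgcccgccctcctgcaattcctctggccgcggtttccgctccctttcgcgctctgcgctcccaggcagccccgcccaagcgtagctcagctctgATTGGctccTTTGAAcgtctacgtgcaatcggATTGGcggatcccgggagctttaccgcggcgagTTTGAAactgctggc
Ccnb2: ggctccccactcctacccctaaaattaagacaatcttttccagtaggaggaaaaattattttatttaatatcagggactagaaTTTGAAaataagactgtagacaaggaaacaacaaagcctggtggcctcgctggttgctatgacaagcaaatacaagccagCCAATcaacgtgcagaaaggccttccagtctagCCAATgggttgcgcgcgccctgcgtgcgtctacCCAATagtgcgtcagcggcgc
In Cdk1 the CCAAT matches begin 208, 80 and 48 bases before the start and the CHR matches 71 and 15 bases before it. In Ccnb2 the CCAAT matches begin 87, 54 and 21 bases before it and the CHR match 167 bases before it. Of 48 mitotic genes that rose, 40 had a promoter in the table. Over windows of 300 bases that include the first 50 transcribed bases, a CCAAT was found for 30 of the 40 genes (75.0%), a CHR for 33 (82.5%) and both for 29 (72.5%). The shares over 9688 tested genes with a promoter were 42.7%, 15.9% and 6.4%, and over all 27025 genes that have a promoter 41.1%, 21.7% and 8.6%. A match is a description of the letters and was not tested as a site.

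**Figure D2:**
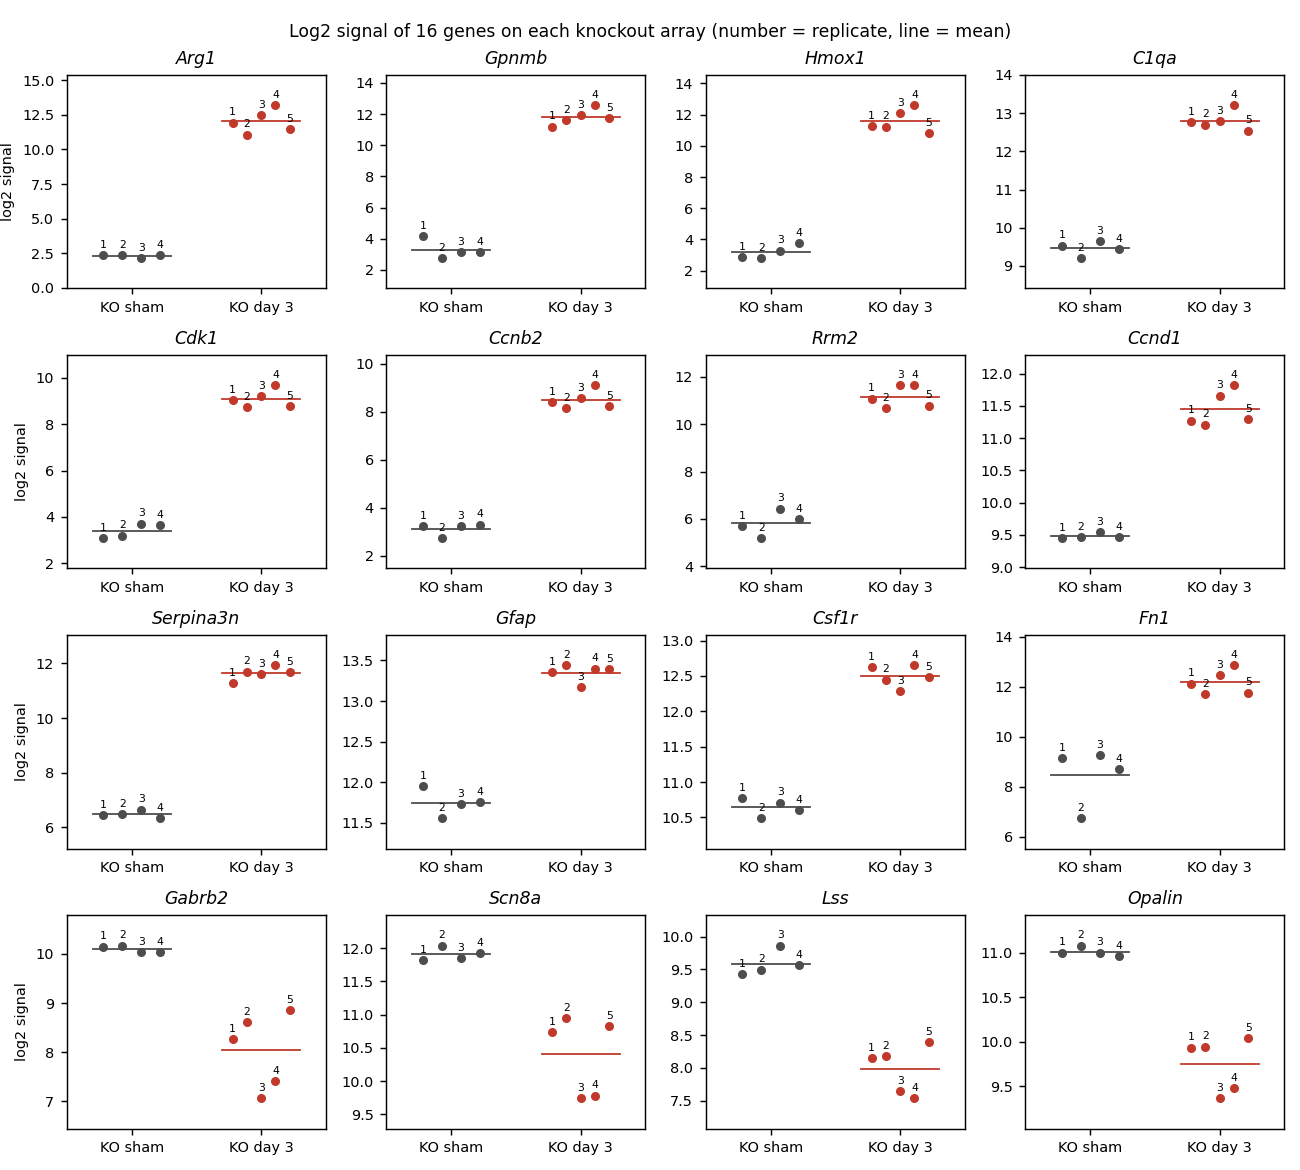
Log2 signal (y) of 16 genes on each KO sham array (grey) and KO day 3 array (red), with the replicate number above each point and a line at the mean. In none of the 16 genes do the groups overlap, and for Gabrb2, Scn8a and Opalin replicates 3 and 4 are the lowest of the injured samples.

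Macrophage genes rose in all 21 tested members of the infiltrating macrophage list, with a median of 5.10, the highest among the lists. Beside Hmox1, Msr1 and Ms4a6d, the Fc receptor gene Fcgr2b rose 59.4-fold. In the list of lipid-laden phagocyte and lysosome genes, 26 of 28 were higher and none lower (median 2.70); Itgax and Igf1 did not pass. Tyrobp, the adaptor of the receptor TREM2, read 9.07, 8.63, 9.16 and 9.01 in sham and 12.62, 12.57, 12.81, 13.34 and 12.69 at day 3 (14.3-fold), and Ctsz, a lysosomal protease, rose 8.76-fold. The macrophage list mean of KO sham replicate 2 was 3.53, against 4.14 to 4.42 in the other sham samples. Without it the count of higher macrophage genes was still 21 of 21.

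Among genes of homeostatic microglia, 12 of 16 were higher and none lower, with a median of 1.86. Without KO day 3 replicate 3, replicates 1 and 3, or replicates 3 and 4, 13 were higher and 1 was lower. Fcrls rose 18.1-fold, Olfml3 11.7-fold, Aif1 8.14-fold and Csf1r, the receptor on which microglia depend, 3.61-fold. P2ry12, Siglech, Sall1 and Bin1 did not pass, at 0.54 ± 0.31, -0.20 ± 0.28, 0.11 ± 0.21 and -0.12 ± 0.08. The first 3 of these are genes that resting microglia express, and the levels of P2ry12 ran from 7.62 to 7.98 in sham and from 7.39 to 8.73 at day 3.

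Of 13 complement genes, 9 were higher and 1 lower (median 3.35). The 3 chains of C1q, the first component, rose 10.2-fold (C1qa), 12.9-fold (C1qb) and 13-fold (C1qc), with SDs small beside the differences: C1qa read 9.53, 9.21, 9.64 and 9.45 in sham and 12.77, 12.70, 12.80, 13.21 and 12.54 at day 3. Cfp, which encodes properdin, fell by 0.44 ± 0.15. Without KO day 3 replicates 3 and 4, 7 genes were higher and none lower, and without replicates 1 and 3 as many as 2 were lower.

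Of 19 chemokine and receptor genes, 17 were higher. The monocyte attractants Ccl2, Ccl12 and Ccl9 rose at least 50.9-fold, at least 25.8-fold and 30.7-fold, and Ccl3 at least 15.6-fold. The day 3 samples differed here: Ccl2 read 9.71, 8.81, 10.37, 10.31 and 9.20. Cx3cl1, the neuronal ligand of the microglial receptor CX3CR1, fell by 1.18 ± 0.22. Of 22 cytokine and signalling genes, 20 were higher (median 2.25), among them Socs3, the feedback inhibitor of IL-6 family signalling (49.0-fold), the common receptor chain gene Csf2rb (at least 28.7-fold) and the tumour necrosis factor receptor genes Tnfrsf1b (at least 9.28-fold) and Tnfrsf1a (7.31-fold). Il6 itself was below log2 4 on all 9 arrays and did not pass.

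Of 26 interferon response genes, 22 were higher (median 1.98). Irf8, also a macrophage lineage factor, rose 14.4-fold, Bst2 13.6-fold, the immunoproteasome gene Psmb8 9.81-fold and Irf9 3.98-fold. The day 3 samples differed: the list mean was 7.58, 6.77, 8.36, 7.20 and 6.72, against 5.07 to 5.60 in sham. The count was 20 without replicates 1 and 3, 20 without replicates 3 and 4, and 17 when KO day 3 replicates 1 and 3 and KO sham replicate 2 were left out together. In antigen presentation, 13 of 14 genes were higher. B2m, the light chain of class I molecules, rose 3.90-fold, the class I genes H2-D1 and H2-K1 3.66-fold and 3.63-fold and the costimulator gene Cd86 at least 3.55-fold. Cd83 fell by 1.38 ± 0.23.

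Few neutrophil and lymphocyte markers passed. Of 10 tested neutrophil genes, Csf3r (2.78-fold) and Mmp8 (at least 2.33-fold) passed. Elane, Cxcr2 and Padi4 were under log2 4 on all 9 arrays. The list mean was 8.18, 7.04, 10.02, 7.00 and 6.50 at day 3 and 6.24, 5.83, 7.01 and 6.73 in sham, so that replicates 1 and 3 stood above the others, replicates 4 and 5 lay within the sham range and replicate 2 lay just above it. Of 16 lymphocyte markers, 15 were under log2 4 on all 9 arrays, Cd3e and Cd79a included. The 1 tested, Cd28, passed, but reached log2 4 in only replicate 4 (4.24), and another of its probe sets did not pass. It did not pass without replicates 3 and 4 (adjusted p = 0.0706 in limma).

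Reactive astrocyte genes rose in 26 of 27 tested members, with a median of 3.54; Sphk1 did not pass. Serpina3n, a protease inhibitor that reactive astrocytes secrete, had the smallest adjusted p of all genes (2.98e-22): it read 6.44, 6.49, 6.65 and 6.34 in sham and 11.29, 11.70, 11.62, 11.93 and 11.68 at day 3, a 35.9-fold rise (5.17 ± 0.13). Tgm1 rose at least 23.8-fold. Gfap, the intermediate filament gene, rose 3.04-fold from an already high level (11.56 to 11.95 in sham, 13.17 to 13.44 at day 3). Of 20 genes of homeostatic astrocytes, 3 were higher and 10 lower, with a median of -0.32. Aldh1l1, an astrocyte enzyme of folate metabolism, rose 2.12-fold, and Sox9 and Apoe rose by 0.56 ± 0.09 and 0.74 ± 0.15. Gpc5 fell 3.25-fold, the neurotensin receptor gene Ntsr2 3.15-fold and the glycolytic enzyme gene Aldoc 1.73-fold. The count of lower genes was 6 without KO day 3 replicates 3 and 4 and 8 without replicates 1 and 3.

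Genes of collagens and fibroblast matrix and many genes of vessels rose. All 24 tested genes of collagens and fibroblast matrix were higher, with a median of 2.49. Tnc, which encodes tenascin C, rose 24.0-fold, Fn1, fibronectin, 13.2-fold, Thbs2 9.99-fold and Col5a2 9.82-fold. The level of these genes differed within both groups. Fn1 read 9.15, 6.74, 9.25 and 8.70 in sham and 12.13, 11.71, 12.48, 12.86 and 11.77 at day 3, and the list mean was 7.12, 5.88, 7.57 and 7.37 in sham and 9.93, 8.79, 10.58, 9.87 and 8.73 at day 3. KO sham replicate 2 was the lowest sham sample, and it also had the lowest Schwann cell list mean (6.20, against 7.45 to 8.25). Without it and KO day 3 replicates 1 and 3, 18 of the 24 passed. Of 25 metalloproteinase genes and inhibitors, 19 were higher and 3 lower (Mmp17, Timp2 and Adamts4). Adam8 rose at least 36.5-fold, Mmp19 at least 6.03-fold and Adam17, the enzyme that sheds tumour necrosis factor, 2.96-fold. Of 27 endothelial and pericyte genes, 17 were higher and 2 lower. The adhesion receptor gene Icam1 rose at least 6.40-fold, the transporter gene Abcg2 2.12-fold and the tight junction gene Tjp1 1.65-fold. Apln and Vegfa, which encode vessel growth factors, fell by 0.92 ± 0.11 and 0.86 ± 0.17. The count of higher endothelial and pericyte genes was 14 without KO day 3 replicates 3 and 4 and 15 without KO sham replicate 2.

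Of 15 genes of heme and iron handling, 10 were higher and 3 lower. Slc11a1, the metal transporter of phagosomes, rose at least 29.7-fold, Lcn2, lipocalin 2, 15.6-fold and the biliverdin reductase gene Blvrb 3.10-fold. Tfrc, the transferrin receptor gene, fell by 0.65 ± 0.12. Of 22 stress and antioxidant genes, 12 were higher and 5 lower. The small heat shock protein gene Hspb1 rose 13.9-fold, Atf3 at least 13.3-fold and the metallothionein genes Mt2 and Mt1 2.31-fold and 1.86-fold. The 5 that fell were the cytosolic chaperone genes Hsp90aa1, Hspa8, Dnajb1 and Hsph1 and the glutathione enzyme gene Gclc, by 0.12 to 0.73. Of 21 immediate early genes, 14 were higher, with Jun at 2.71-fold and Fosl2 at 5.41-fold. Egr3 and Arc, which neuronal activity induces, fell by 1.05 ± 0.29 and 0.85 ± 0.18, and Jund by 0.19 ± 0.08. Of 18 genes of apoptosis and caspases, 16 were higher: Birc5, which encodes the mitotic protein survivin, at least 31.5-fold, Casp8 10.4-fold, Casp1 6.88-fold and Casp12 4.51-fold. Casp9 and Bcl2 did not pass. Without KO day 3 replicates 3 and 4, the counts of higher genes were 8 for heme and iron, 10 for stress, 12 for immediate early genes and 14 for apoptosis. Without replicates 1 and 3, they were 8, 11, 12 and 15, and 1 heme and iron gene was lower.

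**Figure D3:**
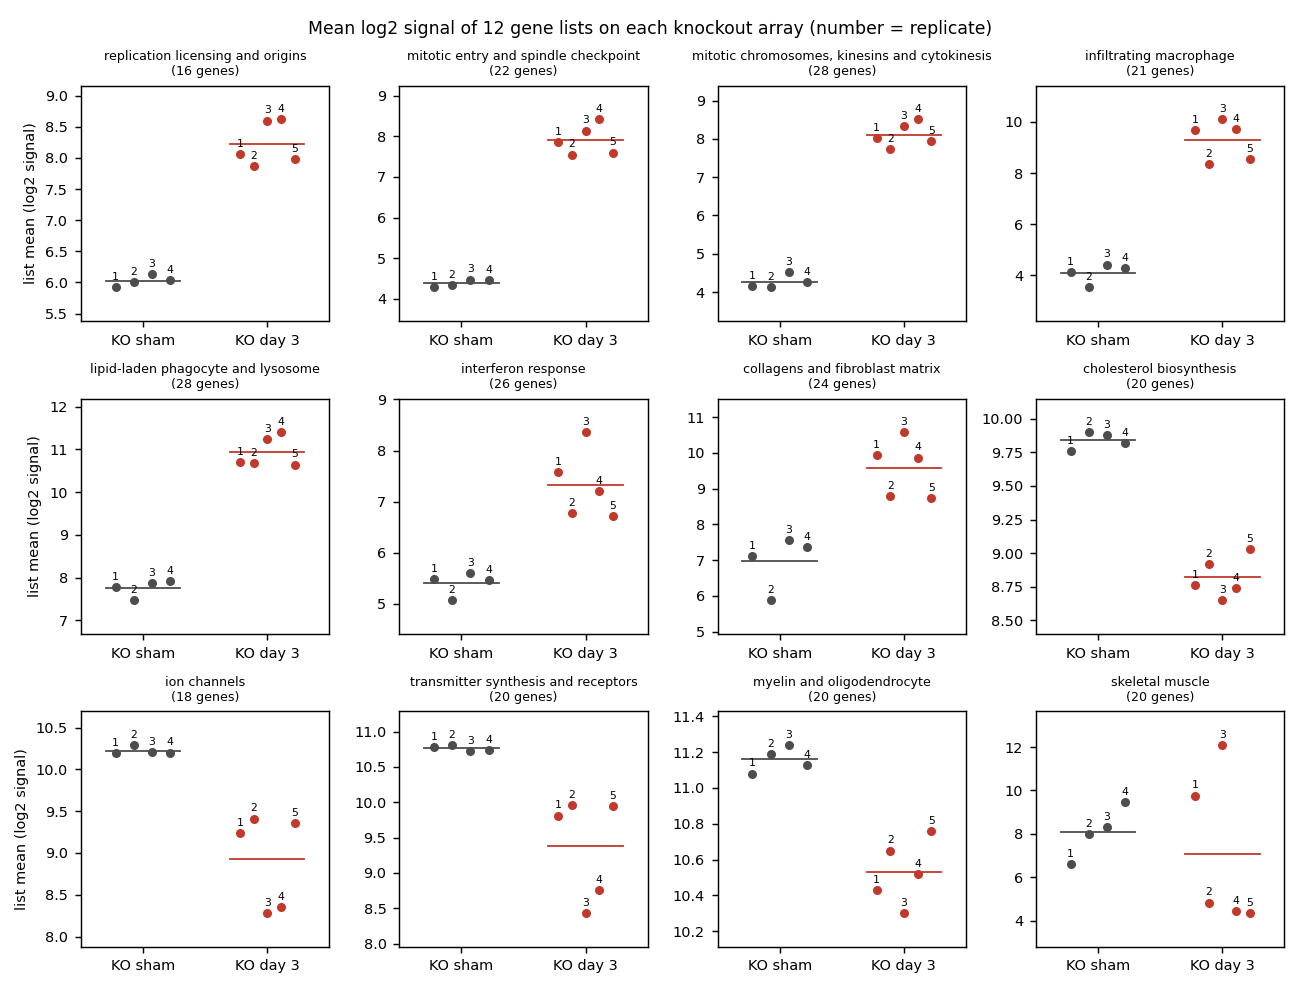
Mean log2 signal (y) of 12 gene lists on each KO sham array (grey) and KO day 3 array (red), with replicate numbers and a line at the group mean. Groups are apart for every list but skeletal muscle, whose day 3 means run from 4.35 to 12.09, and replicates 3 and 4 are the highest for licensing genes and the lowest for ion channel and transmitter genes.

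Neuronal genes fell. Of 24 genes of neurons and synapses, 22 were lower and 2 higher, with a median of -1.05. Vamp1, a synaptic vesicle protein gene, fell 2.82-fold, Sncb (beta-synuclein) 2.13-fold, Thy1 2.04-fold and Uchl1 1.67-fold. Snap25, part of the release machinery, read 15.27, 15.25, 15.27 and 15.23 in sham and 14.54, 14.71, 13.83, 13.82 and 14.70 at day 3 (by 0.94 ± 0.14). It was lower in all injured samples and lowest in replicates 3 and 4. The 2 that rose were Gap43, the growth cone protein gene, by 0.62 ± 0.10, and Syt4, by 0.25 ± 0.09. All 18 ion channel genes were lower, with a median of -1.31: the sodium channel genes Scn4b and Scn8a fell 3.65-fold and 2.83-fold, the potassium channel subunit gene Kcnip4 3.74-fold and Cacng2, stargazin, 2.42-fold. All 20 genes of transmitter synthesis and receptors were lower, with a median of -1.35. Gabrb2, a GABA-A receptor subunit gene, read 10.15, 10.17, 10.04 and 10.03 in sham and 8.27, 8.62, 7.06, 7.41 and 8.86 at day 3, a 4.14-fold fall (adjusted p = 2.08e-07). Slc32a1, the vesicular transporter of inhibitory neurons, fell 3.08-fold, the glycine receptor gene Glra1 3.05-fold and the AMPA receptor gene Gria4 2.26-fold. Without replicates 3 and 4, the medians of the neuron, ion channel and transmitter lists were -0.69, -0.84 and -0.87, the difference of Snap25 was -0.61 and that of Glra1 -1.07.

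Of 12 tested genes of motor neurons and neurofilament, 10 were lower (median -0.97). Ache, acetylcholinesterase, fell 3.48-fold, Ina 2.66-fold and Nefh, the heavy neurofilament gene, 2.33-fold. Prune2 fell 1.70-fold, though another of its probe sets did not pass. Of 18 dorsal horn neuropeptide and receptor genes, 11 were lower and 3 higher. Calb2, calretinin, fell 2.42-fold, Nmu at least 3.27-fold and the opioid receptor gene Oprk1 at least 1.75-fold. Crh, corticotropin-releasing hormone, went the other way: it read 6.08, 6.13, 6.25 and 6.17 in sham and 8.89, 8.78, 7.72, 7.87 and 8.56 at day 3, a 4.61-fold rise (2.21 ± 0.27). Gal and Adcyap1, the galanin and PACAP genes that injured neurons are known to induce, rose by 1.06 ± 0.19 and 0.92 ± 0.19. The count of lower genes in the dorsal horn list was 8 without KO day 3 replicates 3 and 4. Genes of oxidative phosphorylation fell in 27 of 28 members, but by little: the median was -0.39, and Atp5a1, Ndufb8, Ndufa4 and Ndufs1 fell 1.37-fold to 1.59-fold. With the mean of all its probe sets, Ndufb8 did not pass.

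Oligodendrocyte genes fell too. Of 20 myelin and oligodendrocyte genes, 17 were lower and none higher, with a median of -0.65. Gjc3 fell 2.54-fold, Opalin 2.39-fold, Nipal4 2.0-fold and Cnp 1.40-fold. Mbp, myelin basic protein, was near the top of the scale (15.70 to 15.76 in sham, 15.50 to 15.61 at day 3) and fell 1.13-fold. Cldn11, Myrf and Sox10 did not pass. Of 12 tested genes of oligodendrocyte precursors, 4 were higher (against 30.9% of all genes), 3 were lower and 5 did not pass. Vcan and Cspg4, the proteoglycans versican and NG2, rose 3.27-fold and 3.15-fold, and Sox6 and Pdgfra by 0.85 ± 0.16 and 0.83 ± 0.17. Bcan, brevican, fell 2.70-fold, and Lhfpl3 and Pcdh15 fell by 0.39 ± 0.14 and 0.26 ± 0.12. Without KO day 3 replicate 3, replicates 1 and 3, or replicates 3 and 4, 1 gene was lower, and it was 2 without KO sham replicate 2. Olig1 and Olig2, the lineage factors, did not pass. Cspg4 and Pdgfra are also genes of pericytes and fibroblasts, whose collagen genes rose on the same arrays; their part in this result was not tested.

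Cholesterol biosynthesis, which myelinating and reactive glia carry out in the cord, was lower as a whole: 19 of 20 genes fell and 1, Ebp, rose (by 0.28 ± 0.08), with a median of -1.07. Lss, lanosterol synthase, read 9.42, 9.50, 9.86 and 9.56 in sham and 8.15, 8.18, 7.65, 7.54 and 8.39 at day 3, a 3.04-fold fall. Insig1, the sterol sensor that is itself a target of the sterol-regulated factor SREBP, fell 2.85-fold (by 1.51 ± 0.10, adjusted p = 1.10e-13), the sterol carrier gene Stard4 2.78-fold and Msmo1 2.30-fold, although another Msmo1 probe set did not pass. Hmgcs1, the synthase that feeds the pathway, fell 2.11-fold, from 14.14, 14.29, 14.34 and 14.24 to 13.24, 13.27, 12.92, 12.93 and 13.52. No injured sample overlapped sham for these 5 genes. The promoter of Hmgcs1 is shown because it is the only one of the 15 in the table with the sterol regulatory element in the form searched, TCACNCCAC on either strand. The window is chr13:119690101-119690350 on the plus strand of GRCm38.p6 (RefSeq), with the match in capitals.
Hmgcs1: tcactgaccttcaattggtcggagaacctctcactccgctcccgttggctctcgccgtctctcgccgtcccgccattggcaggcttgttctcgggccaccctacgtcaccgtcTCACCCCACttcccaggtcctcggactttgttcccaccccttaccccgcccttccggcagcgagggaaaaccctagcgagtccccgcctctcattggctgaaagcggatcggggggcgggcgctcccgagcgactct
The match begins 137 bases before the start. Of the 19 genes that fell, 15 had a promoter in the table, and 1 of the 15 (6.7%) held this form, against 1.4% of the tested genes with a promoter. A CCAAT was found for all 15, against 42.7%.

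Among the other genes of neurotrophin signalling, Sorcs3 fell 2.67-fold and the adaptor gene Gab1 1.44-fold, and Sorcs2 and the adaptor gene Shc1 rose by 0.84 ± 0.13 and 0.66 ± 0.17. Bdnf, the ligand, read 6.61, 7.07, 6.88 and 6.96 in sham and 6.39, 7.10, 5.20, 5.52 and 6.77 at day 3. The groups overlapped, and the fall of 0.68 ± 0.27 (adjusted p = 0.0275) depended on the samples: without replicates 3 and 4 the difference was -0.13, and it did not pass without day 3 replicate 3 or 4, KO sham replicate 2 or 4, or day 3 replicates 1 and 3 (-0.42). Ngfr, the p75 neurotrophin receptor gene, did not pass, at 0.81 ± 0.40 (adjusted p = 0.0741), with day 3 readings of 4.65, 6.03, 6.31, 7.50 and 5.21 against 5.03 to 5.21 in sham. It passed with the replicate number as a block (0.92, adjusted p = 0.0316), without day 3 replicate 1 or replicate 5, without replicates 1 and 3 (1.12, adjusted p = 0.0227), and without these and KO sham replicate 2 (1.08, adjusted p = 0.0439). Without replicates 3 and 4 its difference was 0.17 (adjusted p = 0.725). In the list as a whole, 2 of 12 genes were higher and 8 lower, and 6 were lower without replicates 3 and 4.

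The 5 KO day 3 samples spread widely. On the first principal component, which held 54.1% of the variance over all arrays, they stood at -44.4, -27.0, -79.5, -73.0 and -28.3 (replicates 1 to 5), while the KO sham samples stood at 70.2, 83.2, 64.2 and 67.6. Their correlations over genes ran from 0.9246 (replicates 2 and 3) to 0.9942 (replicates 2 and 5), against 0.9881 to 0.9942 among KO sham. The median SD of a gene was 0.210 in KO day 3, 0.205 in WT day 3 and 0.098 in KO sham cord, and 257, 243 and 127 genes had an SD above 1. Replicates 3 and 4 had the highest means of the licensing list (8.60 and 8.62, against 7.87 to 8.06) and the lowest of the transmitter list (8.43 and 8.76, against 9.81 to 9.96). Without both, 7205 genes passed. The medians of the mitotic chromosome, macrophage and cholesterol lists were then 4.09, 4.79 and -0.94, in place of 4.24, 5.10 and -1.07. Lists that moved more, as a share of their median, included ion channels (-1.31 to -0.84), transmitter genes (-1.35 to -0.87) and neurons and synapses (-1.05 to -0.69). Dorsal horn neuropeptides (-1.11 to -0.71), Hox genes (-0.79 to -0.51) and neurotrophin signalling (-0.59 to -0.31) did so too. So did homeostatic astrocytes (-0.32 to -0.13) and neutrophil genes (1.22 to 0.66).

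The widest spread was in genes of skeletal muscle, which supplied all 10 of the genes with the largest SD. Myh4, the gene of a fast myosin, read 8.22, 10.34, 9.85 and 10.42 in sham and 12.23, 5.79, 14.42, 4.42 and 4.36 at day 3. Replicates 1 and 3 stood above all sham samples and the other 3 below them. The list mean over 20 genes did the same, at 9.76, 4.83, 12.09, 4.44 and 4.35 against 6.62, 7.99, 8.30 and 9.47. The summed muscle signal, on a linear scale, ran from 577 to 1.95e+05 at day 3 (median 902) and from 3870 to 31700 in KO sham cord, against 394 to 10800 in WT sham cord. In the fit with all arrays, 1 of the 20 genes was higher (Tnni1, 1.34-fold, which did not pass without day 3 replicate 3, KO sham replicate 1 or KO sham replicate 2) and 1 lower (Myh7, at least 2.95-fold). Without day 3 replicates 1 and 3, 17 were lower and none higher. Replicate 3 was also the highest for the neutrophil markers S100a8 (14.37) and Mpo (7.18, against 2.40 or a value near it in the others). What part muscle tissue or other cells had in the other results was not tested. Without replicates 1 and 3, the counts for the lists named above were within 2 of those with all arrays, except for skeletal muscle and Hox genes. Some medians moved where counts did not. The neutrophil median was then 0.02 in place of 1.22 and the chemokine median 2.91 in place of 3.58. Interferon genes stood at 1.48 in place of 1.98 and collagens at 2.07 in place of 2.49. The macrophage median stayed near its value, at 5.07 in place of 5.10.

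**Figure D4:**
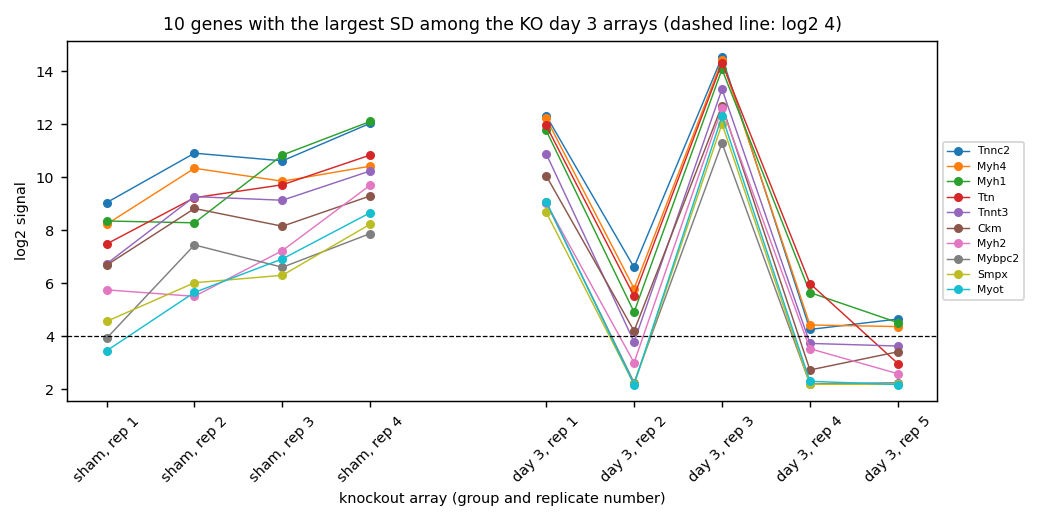
Log2 signal (y) of the 10 genes with the largest SD among the KO day 3 arrays, for each KO sham and KO day 3 array (x); a line joins the values of a gene within a group and the dashed line marks log2 4. Replicates 1 and 3 at day 3 lie above 8, and replicates 2, 4 and 5 mostly near or under 6, with most sham readings between.

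Hox genes, which mark the level of the cord along the body axis, were lower in 17 of 19 members (median -0.79). Hoxa7 fell 2.40-fold, Hoxa9 1.79-fold, Hoxd8 1.74-fold and Hoxa5 1.73-fold. The list mean was 7.37, 7.46, 6.42, 6.70 and 7.37 at day 3 and 7.92 to 7.97 in sham. Without replicates 3 and 4, 11 members passed, and without replicates 1 and 3, 14 did. KO sham cord (7.95 ± 0.02) had the highest mean of the 8 groups, against 7.36 ± 0.10 in WT sham and 7.17 ± 0.26 in WT day 3 cord. In WT cord, 11 members were lower and 3 higher at day 3, with a median of -0.39. Whether the cord level sampled differed between the groups was not tested. Of 8 tested ependymal genes, 1 was higher (Rarres2, 2.29-fold) and 3 lower (Ccdc153, Dynlrb2 and Ccdc39). Over all genes tested, 30.9% were higher and 38.8% lower, so these counts do not set the list apart. Foxj1, the factor of ciliated cells, did not pass. Ccdc39 did not pass without day 3 replicate 3 or 4 or KO sham replicate 2 or 3, and without day 3 replicates 1 and 3 only 1 ependymal gene was lower. Of 11 Schwann cell and nerve root genes, 4 were higher, near the 30.9% of all genes tested, and 1 was lower. Fxyd3 (at least 4.32-fold), Egr2 (at least 3.58-fold), Dhh and Cdh19 (1.79-fold) rose and Mal, which oligodendrocytes also express, fell 1.48-fold. KO sham replicate 2 had the lowest list mean of the sham samples (6.20): without it 3 genes rose, Egr2 by 1.28 in place of 1.90 and Fxyd3 by 1.93 in place of 2.35, and the list median was -0.27 in place of 0.00.

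Whether the response at day 3 depends on the genotype was tested as the difference between the KO and WT responses. In WT cord 8018 genes (66.9%) passed at day 3. No gene (0%) passed the test of the difference in limma, 839 had an unadjusted p under 0.05 and the smallest adjusted p was 0.228. Side by side, the list medians in KO and WT were 4.24 and 3.75 for mitotic chromosomes and 5.10 and 4.11 for infiltrating macrophages. They were 3.54 and 4.0 for reactive astrocytes, -1.07 and -0.99 for cholesterol biosynthesis and -1.35 and -1.14 for transmitter genes. Other lists lay further apart: chemokines (3.58 and 2.26), neutrophil genes (1.22 and -0.18), Schwann cell genes (0.0 and 1.39) and skeletal muscle (-1.36 and 1.42). None of these pairs was tested as a list. The 5 genes with the smallest p did not pass: Hoxa10 (-2.45 ± 0.48), Plcg2 (1.16 ± 0.24), Hoxc10 (-1.74), Nkd1 (-0.72) and Hoxd9 (-1.56). Plcg2, a phospholipase gene of immune cells, rose 8.59-fold in KO cord (3.10 ± 0.16) and by 1.94 in WT cord. For Hoxa10, KO sham read 8.58 to 8.94 against 6.10 ± 1.02 (SD, n = 4) in WT sham. Without KO sham replicate 2, 1 gene passed, Egr2 (-2.54 ± 0.34, adjusted p = 0.000574), a transcription factor gene of Schwann cells and macrophages. It read 6.18, 3.78, 6.18 and 6.34 in KO sham, so that the excluded library was the low one. Without WT day 3 replicate 3, 1 gene passed as well, Hoxa10 (-2.74, adjusted p = 0.0376).

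**Figure D5:**
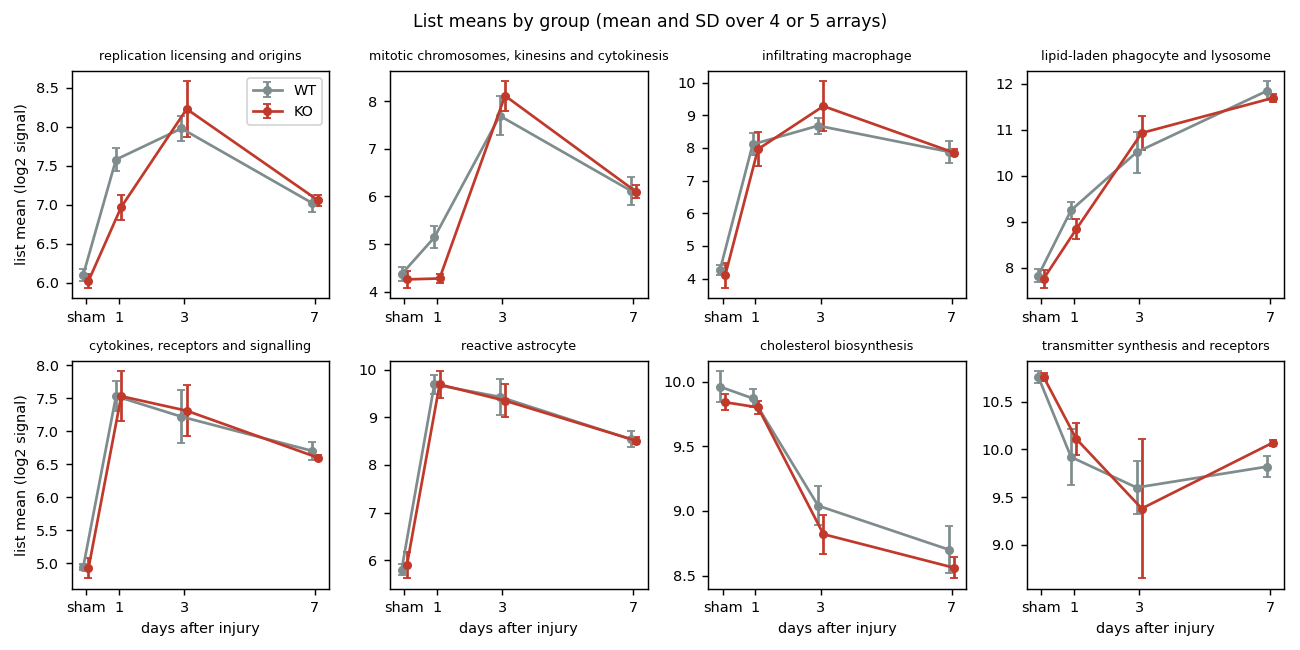
Mean log2 signal of 8 gene lists (y) in sham cord and 1, 3 and 7 days after injury (x) in WT (grey) and KO (red), as mean and SD over 4 or 5 arrays. In KO cord the list of mitotic chromosomes is highest at day 3, cytokine and reactive astrocyte lists are highest at day 1, phagocyte genes are highest at day 7 and cholesterol genes are lowest at day 7.

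Day 3 was also compared directly with the other times in KO cord. These comparisons use no sham sample but share the day 3 samples with each other and with the comparison above. Against day 1, 6539 genes (54.5%) passed, 2818 higher (23.5%) and 3721 lower (31%) at day 3. Of the mitotic genes, 27 of 28 genes of mitotic chromosomes were higher than at day 1 (median 4.29), and 21 of 22 of mitotic entry (3.67). The 5 largest rises were Mki67, the proliferation marker (6.71, adjusted p = 8.49e-13), Pbk (6.41), Ube2c (6.20), Gpnmb (6.03) and Top2a (5.73). Cdk1 was 4.98 higher than at day 1. Of the phagocyte and lysosome genes 26 of 28 were higher (median 1.95), and of collagens 16 of 24 (9 without replicates 1 and 3, 10 without replicates 3 and 4). In contrast, 12 of 26 interferon genes were lower and 2 higher (16 and 1 without replicates 1 and 3), and the largest falls were Slc10a6, Cxcl3, Saa1, Il6 and Sphk1, by 3.19 to 4.21. Cholesterol genes were lower than at day 1 in 19 of 20 (median -0.93).

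Against day 7, 4303 genes (35.9%) passed, 1988 higher (16.6%) and 2315 lower (19.3%) at day 3. This count depends on the samples: it was 2898 without replicate 3, 3016 without replicate 4, 2635 without replicates 1 and 3 and 1648 without replicates 3 and 4. Mitotic genes were higher at day 3 than at day 7 in 27 of 28 and 20 of 22 (medians 1.93 and 2.08), and genes of nucleotide supply in 19 of 19 (16 without replicates 3 and 4). Of the named rule's largest rises, Ccl7 and Ccl2 were 4.19 and 3.76 higher and Hmmr, a mitotic spindle gene, 3.58; Myh4 was 4.94 higher (adjusted p = 0.0308), with the spread of muscle readings given above. The fifth, Hmox1, was 3.59 higher. Phagocyte genes were lower at day 3 in 17 of 28 and higher in none, and the largest falls were the long noncoding RNA 9630013A20Rik (4.60), the macrophage metalloelastase gene Mmp12 (3.73), the proton pump gene Atp6v0d2 (3.62), Rassf10 (3.28) and Mcoln3 (2.97). Cholesterol genes were higher at day 3 in 10 of 20 and lower in none. Transmitter genes were lower at day 3 than at day 7 in 17 of 20 with all samples (median -0.68), but in 2 without replicate 3, 3 without replicate 4, 4 without replicates 1 and 3 and 0 without replicates 3 and 4 (median -0.18). Their list mean was 9.81, 9.96 and 9.95 in replicates 1, 2 and 5 and 8.43 and 8.76 in replicates 3 and 4, against 10.03 to 10.11 at day 7.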

How the data were processed

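The authors deposited log2 signals of 34 Affymetrix arrays, made with GCRMA (background correction by probe sequence, quantile normalization and a summary per probe set), per the submitters' processing notes, which give no version. Quantile normalization takes out most of any shift common to all genes. Array medians lay between 4.138 and 4.391. They ran from 4.138 to 4.195 in KO sham and from 4.272 to 4.371 in KO day 3 cord, so a small difference between the groups remained. From these values, limma 3.58.1 in R 4.3.3 (lmFit and eBayes, 1 mean for each of 8 groups over all arrays) gave each difference, with Benjamini-Hochberg adjustment over 11993 genes and a threshold of 0.05. Every adjusted p printed is limma's. The fit was run on simulated data in which each gene had the same spread in every group and few genes changed. In the real data KO day 3 cord spreads more widely and most genes passed. The simulation therefore does not show how well these p-values hold.

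Of 45101 probe sets, 64 are controls, 34945 have 1 gene symbol, 932 several and 9160 none in the platform annotation; 34754 symbols were updated by Entrez number. Each of 18193 genes was represented by its brightest probe set on average, and 6200 genes not above log2 4 on at least 4 arrays were left out. Of the named genes that passed, 80 have another tested probe set. Among these 133 other probe sets, 127 passed in the same direction, 5 did not pass (Cd28, Msmo1, Prune2, Nkd1 and Mbp) and 1 passed the opposite way (Eif2s3y).

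The samples compared, the 41 gene lists (705 different tested genes, 21 of them in more than 1 list) and the rules were chosen with earlier results of these data known. Named genes were the 12 largest rises and falls without overlap, up to 4 members per list with the smallest p, the 10 genes of widest spread, the 5 largest rises and falls against days 1 and 7, the 5 with the smallest p in the genotype difference, and a set of marker genes. Promoters came from the RefSeq table of GRCm38.p6. Alternatives covered normalization, filter, floor, probe sets, array weights, variance model, groups in the fit, replicate number and left-out arrays. Leaving out KO day 3 replicates 1 and 3, or 3 and 4, or 1 and 3 with KO sham replicate 2, was chosen after seeing the data.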

Additional observations from a re-analysis of the deposited data

Results flagged for a closer look

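A sample was singled out where its gap to the nearest other sample of its group exceeded Dixon's 95% critical value. Of 498 such checks, 30 did so, and chance gives about 1 in 20 groups. All values are log2 signals.

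KO sham replicate 2, the library whose Ntrk2 readings go against its label, stood apart at 11 of them. It was highest at 2 Ntrk2 probe sets, one of those low in the other KO samples (8.59, against 2.83 in each other sham sample) and one below background on all 9 arrays (2.18, against 2.17). It was lowest for the microglial gene Aif1 (6.74, against 7.12 to 7.19), the interferon factor gene Irf9 (5.22, against 5.69 to 5.76), Casp12 (5.20, against 6.04 to 6.17), Egr2 (3.78, against 6.18 to 6.34) and Ccnb2 (2.74, against 3.22 to 3.29). It was lowest for the mean of the complement list (5.78, against 6.23 to 6.27) and of the antigen presentation list (5.84, against 6.39 to 6.47). It was highest for the neuronal gene Sncb (7.69, against 7.26 to 7.28) and for Ccl3 (2.37, against 2.34, both below background).

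KO sham replicate 3 was highest for Cenpa (4.35), Slc11a1 (4.14), Ccnd1 (9.54), Cdkn2c (4.48) and, below background, Msr1 (3.39) and Mmp8 (3.15). It was lowest for Nxph2 (5.82) and Arg1 (2.17). KO sham replicate 1 was lowest for Vcan (8.35) and highest for Mcoln3 (2.30), and KO sham replicate 4 lowest for Gpc5 (9.94) and Mmp19 (2.39).

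Among the injured samples, KO day 3 replicate 3 was highest for Alas2, the heme synthesis gene of red cell precursors (5.94, against 4.32 to 4.70), Tnni1, a slow muscle troponin gene (7.06, against 6.60 to 6.73) and Slc10a6 (3.00, below background). Replicate 4 was highest for Cdkn3 (6.75, against 5.82 to 6.03), C1qc (11.46, against 10.75 to 10.90) and the mean of the Schwann cell list (8.39, against 7.79 to 7.84). Replicate 5 was highest at another Ntrk2 probe set below background (2.22, against 2.17).

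Differences between time points were tested directly in KO cord, and 6539 genes differed between days 3 and 1 and 4303 between days 3 and 7 in limma.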

How the results depend on the processing

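The count of genes that passed in KO day 3 against KO sham was 8359 and ran from 7951 to 8426 when each of the 9 arrays was left out in turn. Over the other alternatives it lay between 7205 (without day 3 replicates 3 and 4) and 8678 (no filter). Normalizing by quantiles again gave 8638, with 38.7% of them higher in place of 44.4%. Centring each array on its median gave 8409, with 41.9% higher. With only the groups compared in the fit, 7898 genes passed, and 181 of the 184 named genes still did. The limma adjusted p was then 0.00284 for Ntrk2, 0.00112 for Gabrb2 and 1.18e-07 for Serpina3n, in place of 9.29e-07, 2.08e-07 and 2.98e-22. For Sphk1 it was smaller, at 0.0318 in place of 0.102. The same held for Il6 (0.0219 in place of 0.326), Saa1 (0.0265 in place of 0.55) and Alas2 (0.0382 in place of 0.162), so that these genes passed in that fit. The count against day 1 was 6539 and ran from 5754 to 6699 without single arrays, and that against day 7 was 4303 and ran from 2898 to 4974. Against day 7 it was 2126 with only the groups compared in the fit, 2635 without day 3 replicates 1 and 3 and 1648 without replicates 3 and 4. For the genotype difference, the count was 0 and ran from 0 to 1 without single arrays. It was 3 with no filter (Zfp316, Ptgfr and Cdr1os), 5 with values under log2 4 set to 4 (Fzd9, Kif6, Kcnh8, Hoxa10 and Tex15) and 1 (Egr2) without KO day 3 replicates 1 and 3 and KO sham replicate 2. The cause of these shifts was not tested.

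With the replicate number as a block, 8379, 0, 6650 and 4796 genes passed in the 4 comparisons. Deviations of same-numbered KO day 3 and KO sham samples correlated at -0.287, 0.376, 0.248 and -0.211 for numbers 1 to 4, so the numbers were not taken as pairs. Among named genes the block changed 1 call, that of Ngfr, which passed with it (adjusted p = 0.0316).

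Of the 184 named genes that passed, the number that still did was 184 with the block, 180 without KO sham replicate 2, 179 without KO day 3 replicate 3, 177 without replicates 1 and 3, 177 without replicates 3 and 4, and 180 with quantiles. The sign turned for Saa1 with quantiles (-0.15), for Eif2s3y (-0.04) and Ttn (0.24) with the mean of all probe sets, and for Myot (0.37) and Smpx (0.27) with the floor at 4. With arrays left out, Myot ran from -4.13 (without KO day 3 replicates 1 and 3 and KO sham replicate 2) to 0.30 and Ttn from -4.52 (without the same arrays) to 0.13.

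Arrays and the floor of the scale limit what can be read. For genes that rose from under log2 4 in sham cord, folds are lower bounds where no day 3 reading is that low. Mbp and Snap25 lie near the top of the scale, and 5 against 4 arrays with wide day 3 spread leave genotype differences imprecise.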
